A study of Mus musculus with 20 samples.

Results

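Gene expression was compared between hippocampal cultures that received a glutamate pulse with zinc bound by a chelator and cultures that received the same pulse with zinc added. The chelated group was given 50 µM glutamate plus 10 µM of the zinc-binding agent TPA, tris(2-pyridylmethyl)amine, after 1 min in TPA, and the zinc group 50 µM glutamate with 10 µM ZnCl2. Each had 5 libraries, so 10 of the 20 libraries of the study enter the comparison, and 14411 of the 24419 genes counted were tested. The other 10 libraries came from cultures given 50 µM glutamate alone or plain buffered saline (control), and they served here for the estimate of spread and as a reference. All cultures were C57BL6 mouse neurons dissociated at embryonic day 18, grown to day 10 in vitro, and treated with 4 µM cytosine arabinoside, which kills dividing cells, from day 3 to day 6. The pulse lasted 2 min at room temperature, and polyadenylated RNA was taken after 90 min at 37 °C in the former culture medium. No group received zinc or TPA without glutamate, so what either does without the pulse was not measured. Replicates are biological according to the labels, but tissue was pooled from 4 embryos, so p-values measure the spread between these samples, which may be technical. In such bulk cultures fewer cells of a type and less RNA per cell cannot be told apart.

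Free zinc is stored with glutamate in synaptic vesicles of many excitatory hippocampal terminals and is released with it. In the cleft it inhibits NMDA receptors, and zinc that enters the cell is bound by metallothioneins, whose genes are switched on through the metal-sensing factor MTF1. Glutamate itself raises calcium in neurons, which drives a rapid wave of transcription factor genes (Fos, Egr and Npas4 families) and a later wave of effector genes such as Bdnf. Serum response factor (SRF) serves that wave too, and, with actin-sensing coactivators, controls many genes of the actin cytoskeleton.

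Of the genes tested, 51 were higher with TPA than with zinc and 23 were lower, or 0.354% and 0.16% of all genes tested and 0.513% together (edgeR quasi-likelihood test, Benjamini-Hochberg adjusted p under 0.05). The differences were small. The median log2 fold change, always TPA minus zinc, was 0.25 over the 51 higher genes and -0.24 over the 23 lower ones. The 51 include the transcription factor genes Klf4 and Srf, the nuclear noncoding RNA Miat, genes for actin crosslinking and remodelling (Flna, Fblim1, Ssh3, Ppp1r18), the guidance receptor Plxna3 and the signalling enzyme Adcy6. The 23 include the chromatin and mitosis genes Hmgb2 and Nusap1, the AMPA receptor auxiliary subunit Cacng3, and several genes for making ribosomes and translating or modifying RNA. In 47 of the 51 all TPA libraries lay above all zinc libraries, and in 16 of the 23 all lay below. Over all genes tested that separation was seen upward in 286 (1.98%) and downward in 165 (1.14%). The 74 genes were chosen on these same libraries, so their separation, here and gene by gene below, follows largely from that choice. It is a description and no added support. With no adjustment 2312 genes (16.0%) had a p under 0.05.

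The number of genes past the threshold depended on which libraries were fitted. Library totals ran from 28692470 to 38767979 counts with TPA and from 33445137 to 38435627 with zinc, so that 3 counts equal 0.0774 to 0.105 and 0.0781 to 0.0897 CPM (each library's counts set to the same total), covering counting error only. Zinc replicates 4 and 5 differed from zinc replicates 1 to 3 in several gene groups below, and without zinc replicate 4 the count was 899 and without zinc replicate 5 it was 230. Leaving out zinc replicate 1, 2 or 3 gave 24, 14 or 5 genes, and leaving out TPA replicates 1 to 5 in turn gave 127, 16, 39, 31 and 15. Zinc replicates 4 and 5 and TPA replicate 1 were the 3 of the 10 compared libraries that deviated most from their group means. Their root mean square deviations were 0.217, 0.239 and 0.212 in log2 units. Without these 3 the count was 1893, with all 74 genes among them. Glutamate replicates 4 and 5 deviated more, at 0.240 and 0.249, and stayed in every fit that used all 4 groups. With 1 library fewer a group holds 4 libraries, which by itself lowers the power of the test. All 74 genes kept their direction in each of those fits, which reuse most of the libraries that the genes were chosen on. A kept direction is thus no independent support. Past the threshold without zinc replicate 3 were Plxna3, Pex6, Ypel1, Gtf2ird1 and Hmgb2. The bars of genes called with 1 library left out show these counts.

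**Figure D1:**
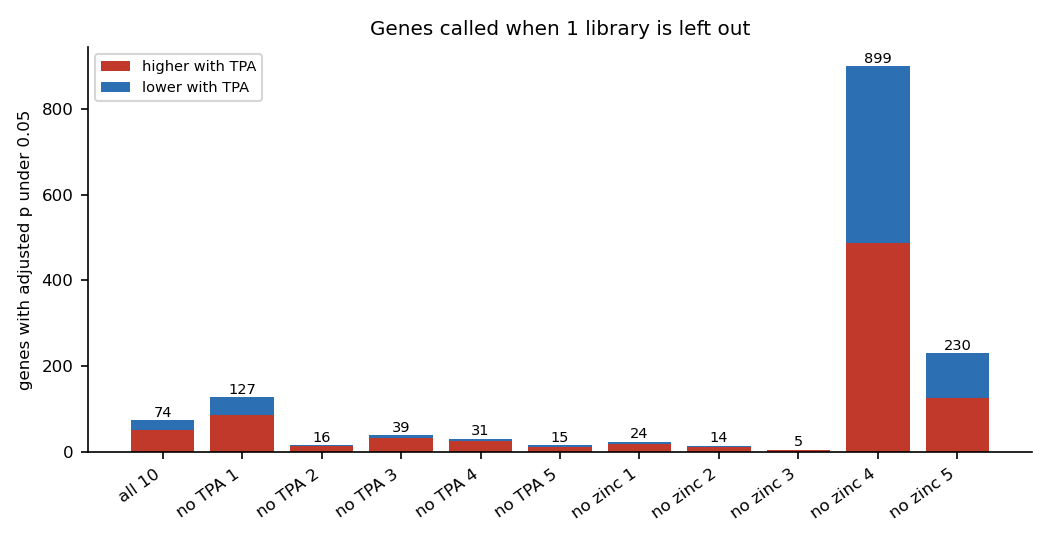
Number of genes with an edgeR adjusted p under 0.05 for TPA against zinc (vertical axis) with all 10 libraries and with each library left out in turn (horizontal axis), split into higher (red) and lower (blue) with TPA. The bar without zinc replicate 4 reaches 899 and that without zinc replicate 3 stands at 5, against 74 with all libraries.

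The transcription factor gene Klf4 had the largest rise of the genes that averaged 1 CPM or more and passed the threshold. It had 2.48, 2.14, 2.27, 2.18 and 2.36 CPM in the TPA libraries and 1.66, 1.30, 0.949, 0.919 and 1.26 CPM in the zinc libraries (replicates 1 to 5, as in all such series below). Every TPA library lay above every zinc library, a 1.88-fold difference (log2 fold change 0.91, SE 0.17, edgeR adjusted p = 0.0199). The gene lies on mm10 chromosome 4, 55527137 to 55532475, minus strand. Srf, the gene of serum response factor, had 46.3, 55.3, 54.95, 57.5 and 54.2 CPM in the TPA libraries and 42.7, 42.5, 41.8, 48.4 and 48.03 CPM in the zinc libraries. TPA replicate 1 fell among the zinc libraries, so the groups overlapped, while the other TPA libraries lay above them (1.20-fold; log2 fold change 0.26, SE 0.06, edgeR adjusted p = 0.0412; chromosome 17, 46546839 to 46556162, minus strand).

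The remaining rapid immediate early genes did not pass the threshold. Egr1, a zinc-finger transcription factor, had 56.9, 50.3, 55.2, 53.3 and 63.1 CPM in the TPA libraries and 46.7, 39.8, 35.4, 39.3 and 40.6 CPM in the zinc libraries (log2 fold change 0.47, SE 0.11, edgeR adjusted p = 0.0592). For Egr2, its paralog, the values were 3.08, 2.42, 2.17, 2.01 and 2.67 CPM in the TPA libraries and 1.74, 1.97, 1.53, 1.31 and 1.51 CPM in the zinc libraries (log2 fold change 0.62, SE 0.15, edgeR adjusted p = 0.0564), and for Npas4, a neuronal activity factor, 69.9, 59.1, 57.8, 60.5 and 68.5 CPM in the TPA libraries and 54.3, 50.9, 38.9, 35.3 and 30.2 CPM in the zinc libraries (log2 fold change 0.59, SE 0.16, edgeR adjusted p = 0.0864). In each of these genes the TPA libraries lay above the zinc libraries with no overlap. For Fos, an AP-1 subunit, the counts overlapped, with 86.03, 76.4, 75.03, 73.00 and 78.5 CPM in the TPA libraries and 90.5, 86.05, 69.8, 48.7 and 45.5 CPM in the zinc libraries (log2 fold change 0.19, SE 0.19, edgeR adjusted p = 0.66). Zinc replicates 4 and 5 were the lowest of the 10 Fos values and zinc replicate 1 the highest. Fosb had 0.32 (adjusted p = 0.166), the synaptic cytoskeleton gene Arc 0.33 (0.19), the small Maf factor Maff -0.72 (0.15) and the orphan receptor Nr4a1 0.04 (0.937). The direction for Nr4a1 was negative with the GC offset described below, with library weights, and without TPA replicate 1, zinc replicate 4 or zinc replicate 5, and that for Fos and Nr4a1 without the 3 most deviating libraries named above. Among the 28 rapid immediate early genes tested, 19 had a positive fold change, the median was 0.097 and 2 passed, Klf4 and Srf. Over all genes tested 7158 of 14411 were positive, with a median of -0.0011. The list's mean deviation from the 20-library average, in log2 units, was 0.16, 0.11, 0.12, 0.086 and 0.14 with TPA and 0.17, 0.23, -0.0096, -0.061 and -0.27 with zinc, so zinc replicates 1 and 2 lay above the TPA libraries and zinc replicates 3 to 5 below them. Without the 3 most deviating libraries the list's median was -0.035.

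**Figure D2:**
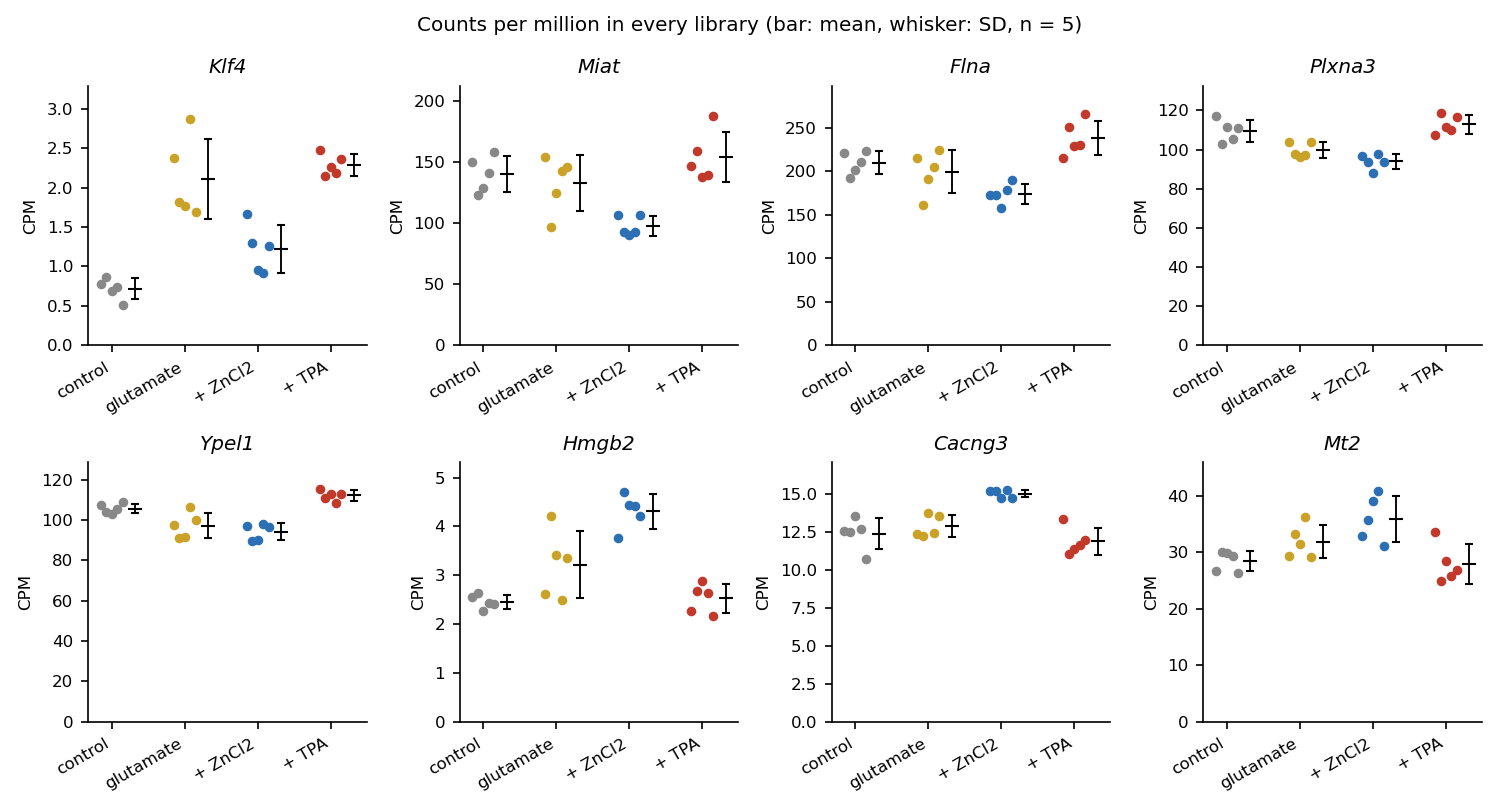
CPM (vertical axes, starting at 0) of 8 genes in each of 5 libraries of control, glutamate, glutamate with ZnCl2 and glutamate with TPA cultures, with the mean (bar) and SD (whisker). In Klf4, Miat, Flna, Plxna3 and Ypel1 every TPA library lies above every zinc library, in Hmgb2 and Cacng3 below, and in Mt2 the groups overlap.

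Next in size among genes past the threshold was Miat, whose noncoding transcript stays in the nucleus. It had 146, 159, 138, 139 and 188 CPM in the TPA libraries and 106, 92.7, 89.97, 92.4 and 106 CPM in the zinc libraries (1.58-fold; log2 fold change 0.66, SE 0.11, edgeR adjusted p = 0.0175; chromosome 5, 112213228 to 112228948, minus strand). TPA replicate 5 was the highest of the 10, and the lowest TPA library still lay above the highest zinc library. Of 15 nuclear-retained noncoding RNAs tested Miat alone passed, 9 were positive, and the list median of 0.08 ranged over -0.018 to 0.13 with a library left out. The host transcript of the neuronal microRNA miR-124, Mir124a-1hg, had 7.44, 8.22, 8.07, 6.92 and 9.92 CPM with TPA and 6.32, 5.11, 5.69, 5.37 and 6.31 CPM with zinc, without overlap (0.50, SE 0.13, adjusted p = 0.0692). Gas5 had -0.28, adjusted p = 0.125.

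Several genes that crosslink or remodel actin were past the threshold, all higher with TPA. Flna encodes filamin A, which links actin filaments to each other and to membrane proteins, and had 215, 251, 229, 230.3 and 266 CPM in the TPA libraries and 173, 172, 158, 178 and 189.5 CPM in the zinc libraries. Its groups did not overlap (1.37-fold; log2 fold change 0.45, SE 0.07, edgeR adjusted p = 0.0112; chromosome X, 74223461 to 74246534, minus strand). Fblim1, whose LIM-domain product binds filamin, had 7.63, 6.85, 6.50, 5.90 and 7.96 CPM in the TPA libraries and 5.47, 4.75, 4.67, 5.43 and 4.98 CPM in the zinc libraries, again without overlap (1.38-fold; log2 fold change 0.46, SE 0.10, edgeR adjusted p = 0.0363; chromosome 4, 141576062 to 141606052, minus strand). Acta2, the smooth muscle actin gene, rose most of all genes past the threshold (log2 fold change 1.34, SE 0.29, edgeR adjusted p = 0.0363) but stayed near or below 1 CPM in every library, with 1.19, 0.808, 0.619, 0.579 and 0.928 CPM in the TPA libraries and 0.264, 0.536, 0.211, 0.418 and 0.185 CPM in the zinc libraries. It also belongs to the mural cell markers, whose other members are given with the marker lists below.

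In all, 34 of 42 genes of filamins, their partners and actin crosslinkers were positive and 3 passed upward, none downward, with a median of 0.095. The list's mean deviation was 0.078, 0.061, 0.086, 0.036 and 0.11 with TPA and -0.14, -0.088, -0.11, 0.11 and -0.041 with zinc, so zinc replicate 4 was the highest of the 10 libraries and without it the median was 0.16. Outside that list, Ssh3, of the slingshot family of cofilin phosphatases, had 8.50, 9.83, 8.84, 9.47 and 9.98 CPM in the TPA libraries and 7.80, 7.56, 6.35, 7.38 and 7.82 CPM in the zinc libraries (0.34, SE 0.07, adjusted p = 0.0416). Ppp1r18, an actin-binding partner of protein phosphatase 1, had a fold change of 0.27, adjusted p = 0.0234. In both the libraries of the groups did not overlap. Nonmuscle and unconventional myosins had 14 of 19 positive with 0 passing.

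Promoter sequence was read for genes past the threshold, to show the letters behind the SRF and actin genes and the difference in GC content described below. Windows were the 250 bases before each start in RefSeq on GRCm38.p6, which carries the mm10 coordinates, and 44 of the 51 higher and 17 of the 23 lower genes had at least 1. A CArG box, the element bound by SRF, was found on either strand for 2 of the 44 higher genes, Srf and Nr2f6, and for 0 of the 17 lower genes. It was found for 1.46% of tested genes with a window, and in 1.47% of all 32851 windows. Srf itself has 2 CArG boxes, at 82 and 62 bases before the start (shown in capitals). No match to the strict form of the box was found in the windows of Klf4, Flna, Fblim1 or Acta2, which says only that these letters are not there. The GC box (letters GGGCGG, either strand) was found for 38 of the 44 higher genes (86.4%) and 9 of the 17 lower genes (52.9%), beside 63.5% of the 10911 tested genes that had a window. The median GC content of those windows was 66.1%, 57.2% and 60.0% in the same order. Klf4, Flna and Plxna3 are shown as the higher genes described most fully here, and Hmgb2 and Nusap1 as the lower ones, each with the GC box, read as GGGCGG or CCGCCC, in capitals (none in Nusap1). The AP-1 letters TGANTCA were found for 2 higher and 1 lower gene, beside 5.3% of tested genes with a window (6.75% of all windows). The cAMP response element TGACGTCA was found for 0 of either, beside 3.11% of tested genes with a window (1.55% of all windows).
Srf, chr17:46556163-46556412, minus strand: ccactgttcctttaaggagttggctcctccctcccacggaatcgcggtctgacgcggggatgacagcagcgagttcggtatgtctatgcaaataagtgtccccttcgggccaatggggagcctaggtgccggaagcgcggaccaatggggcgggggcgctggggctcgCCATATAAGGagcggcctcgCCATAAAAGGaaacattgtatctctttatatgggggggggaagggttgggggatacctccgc
Klf4, chr4:55532476-55532725, minus strand: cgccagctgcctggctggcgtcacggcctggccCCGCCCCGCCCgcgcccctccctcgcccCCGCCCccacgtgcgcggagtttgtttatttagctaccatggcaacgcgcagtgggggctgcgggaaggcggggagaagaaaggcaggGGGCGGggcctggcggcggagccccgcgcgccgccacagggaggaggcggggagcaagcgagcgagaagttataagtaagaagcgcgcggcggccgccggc
Flna, chrX:74246535-74246784, minus strand: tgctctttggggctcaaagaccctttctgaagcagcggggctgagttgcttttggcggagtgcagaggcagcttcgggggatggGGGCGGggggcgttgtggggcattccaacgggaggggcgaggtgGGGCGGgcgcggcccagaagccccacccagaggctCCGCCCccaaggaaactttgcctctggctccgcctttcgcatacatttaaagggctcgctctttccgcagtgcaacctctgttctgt
Plxna3, chrX:74328816-74329065, plus strand: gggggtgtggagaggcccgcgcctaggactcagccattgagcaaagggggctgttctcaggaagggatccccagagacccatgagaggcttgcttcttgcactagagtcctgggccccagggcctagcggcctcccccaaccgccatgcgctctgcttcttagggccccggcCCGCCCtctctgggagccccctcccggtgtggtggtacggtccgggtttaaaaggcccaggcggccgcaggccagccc
Hmgb2, chr8:57511593-57511842, plus strand: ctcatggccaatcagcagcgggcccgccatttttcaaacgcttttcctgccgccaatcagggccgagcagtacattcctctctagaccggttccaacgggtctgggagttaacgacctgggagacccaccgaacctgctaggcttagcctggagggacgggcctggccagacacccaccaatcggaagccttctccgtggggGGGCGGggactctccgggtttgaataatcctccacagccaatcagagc
Nusap1, chr2:119618048-119618297, plus strand: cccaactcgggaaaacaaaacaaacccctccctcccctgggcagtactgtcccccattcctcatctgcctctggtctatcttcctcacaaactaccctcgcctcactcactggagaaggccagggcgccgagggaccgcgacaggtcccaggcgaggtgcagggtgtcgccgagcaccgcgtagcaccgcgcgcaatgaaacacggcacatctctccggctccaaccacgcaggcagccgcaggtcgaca
A match of letters is a description of the window and no evidence that a factor binds there.

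Receptors and surface proteins that guide or attach neurites were represented among the higher genes. Plxna3, which with neuropilin forms a receptor for class 3 semaphorins, had 108, 119, 111, 110.0 and 116 CPM in the TPA libraries and 96.6, 93.6, 88.1, 97.5 and 93.9 CPM in the zinc libraries (1.20-fold; log2 fold change 0.26, SE 0.04, edgeR adjusted p = 0.0096; chromosome X, 74329066 to 74344689, plus strand). The difference was small, but no zinc library reached a TPA library, and the gene passed in all 23 alternative settings tried. Of semaphorins, plexins and neuropilins 23 of 29 were positive with a median of 0.091, and Plxna3 alone passed. The ligand gene Sema3f had 8.19, 6.81, 6.47, 6.10 and 6.41 CPM in the TPA libraries and 4.36, 5.16, 4.96, 5.46 and 6.03 CPM in the zinc libraries, also without overlap (0.39, SE 0.10, adjusted p = 0.0583), and Sema4c had 0.28, adjusted p = 0.0662.

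Igsf9, an immunoglobulin-superfamily protein of dendrites, had 19.3, 19.2, 16.1, 16.9 and 19.8 CPM in the TPA libraries and 12.7, 12.5, 11.9, 15.1 and 14.9 CPM in the zinc libraries, without overlap (log2 fold change 0.45, SE 0.08, edgeR adjusted p = 0.0224). Cdh24, a classical cadherin gene, had 10.3, 12.2, 9.79, 10.6 and 11.2 CPM in the TPA libraries and 9.46, 8.12, 7.33, 8.21 and 8.49 CPM in the zinc libraries (0.38, SE 0.07, adjusted p = 0.0228). Jup, the catenin plakoglobin, had 83.3, 85.5, 85.2, 84.6 and 88.3 CPM in the TPA libraries and 70.8, 62.02, 62.6, 75.5 and 74.3 CPM in the zinc libraries (0.31, SE 0.06, adjusted p = 0.0187). In Jup the zinc libraries spread more widely than the TPA libraries and still did not reach them. Ntng2, the axonal netrin-G2, had 0.21 (0.0291). Genes that act on Notch signalling included Rfng, the glycosyltransferase radical fringe (0.21, adjusted p = 0.026), and Dlk2, an EGF-repeat protein (0.25, adjusted p = 0.0472). In these 5 genes no TPA library fell among the zinc libraries. Cadherins and catenins were positive in 24 of 29 (median 0.074, 1 passing), immunoglobulin-superfamily adhesion genes in 33 of 49 (median 0.056, 1 passing), and Notch, Wnt and hedgehog genes in 29 of 34 (median 0.075, 0 passing). Jup, Ntng2, Rfng and Dlk2, which passed, were not members of these lists, so the counts leave them out. Mean deviations of the cadherin list were -0.026, 0.095, 0.026, 0.059 and 0.10 with TPA and -0.19, -0.13, -0.12, 0.088 and 0.12 with zinc, and those of the immunoglobulin list -0.064, 0.056, -0.0031, 0.05 and 0.075 and -0.13, -0.11, -0.063, 0.022 and 0.11. Zinc replicate 5 was the highest of the 10 libraries in both. Without zinc replicate 1 the medians were 0.023 and 0.017, and without zinc replicate 5 0.11 and 0.083.

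Collagens, laminins and other matrix genes had 40 of 51 positive, a median of 0.098 and 0 past the threshold. Cyr61, a matricellular protein gene, had 11.99, 8.15, 8.12, 10.1 and 10.1 CPM in the TPA libraries and 8.27, 5.69, 5.46, 4.93 and 4.46 CPM in the zinc libraries (0.75, SE 0.19, adjusted p = 0.0748). The lowest TPA libraries lay just below the highest zinc library, so these groups overlapped. Col6a3 had 3.83, 3.86, 4.05, 3.68 and 3.51 CPM with TPA and 2.48, 2.40, 2.32, 3.06 and 3.20 CPM with zinc, without overlap (0.50, SE 0.12, adjusted p = 0.064), and Col4a1 had 0.35, adjusted p = 0.0779.

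Signalling genes past the threshold were spread over many pathways. Adcy6, an adenylyl cyclase that calcium inhibits, had 42.7, 47.3, 42.9, 45.5 and 47.5 CPM in the TPA libraries and 36.5, 38.4, 35.6, 39.7 and 36.6 CPM in the zinc libraries, without overlap (1.21-fold; log2 fold change 0.27, SE 0.05, edgeR adjusted p = 0.0169; chromosome 15, 98589986 to 98607633, minus strand). Rhbdf1, the inactive rhomboid iRhom1 that escorts a protease for EGF-family ligands, had 4.06, 4.11, 4.82, 4.50 and 3.63 CPM in the TPA libraries and 2.62, 3.32, 3.11, 3.56 and 2.86 CPM in the zinc libraries (0.45, SE 0.10, adjusted p = 0.0364). TPA replicate 5 was the lowest of its group and lay just above the highest zinc library. Grk6, a kinase of G protein-coupled receptors, had 0.16 (0.0291), the adaptor Traf4 0.25 (0.023), the Ras GTPase-activating protein Dab2ip 0.24 (0.023) and the Ral exchange factor Rgl1 0.21 (0.0451). Rgl1 was the exception in having overlapping groups.

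Ypel1, a member of the Yippee family, had 115, 111, 113, 109 and 113 CPM in the TPA libraries and 97.03, 89.7, 89.9, 97.9 and 96.6 CPM in the zinc libraries. The lowest TPA library lay well above the highest zinc library (1.19-fold; log2 fold change 0.25, SE 0.04, edgeR adjusted p = 0.0096; chromosome 16, 17070139 to 17086736, plus strand), and the gene passed in all 23 alternative settings. Pex6, an ATPase that recycles the peroxisomal import receptor, had 38.7, 39.1, 40.6, 41.4 and 37.96 CPM in the TPA libraries and 34.6, 32.8, 32.4, 35.5 and 30.4 CPM in the zinc libraries (log2 fold change 0.25, SE 0.04, edgeR adjusted p = 0.0096). The taurine transporter Slc6a6 had 0.18 (0.0227), and the isoprenylcysteine methyltransferase Icmt 0.19 (0.023). Lrrc45, a centrosomal linker protein, had 20.6, 17.5, 16.5, 14.99 and 17.2 CPM in the TPA libraries and 12.6, 13.9, 12.4, 14.4 and 13.02 CPM in the zinc libraries (0.39, SE 0.09, adjusted p = 0.0387). The kinesin-family gene Kif26a had 6.59, 7.02, 7.06, 7.16 and 6.83 CPM in the TPA libraries and 5.58, 5.03, 5.11, 5.79 and 5.57 CPM in the zinc libraries (0.36, SE 0.07, adjusted p = 0.0306). For Tctn3, of the ciliary transition zone, the fold change was 0.24, adjusted p = 0.0291. In all of these the groups did not overlap. Pisd-ps1 (0.22, adjusted p = 0.037) is a pseudogene, and reads may be shared with its parent gene.

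Corepressors and coactivators of transcription were also among the higher genes. Hdac7, a class IIa histone deacetylase, had 10.8, 11.9, 12.3, 10.9 and 11.2 CPM in the TPA libraries and 9.09, 9.32, 8.91, 10.1 and 8.71 CPM in the zinc libraries, without overlap (log2 fold change 0.31, SE 0.07, edgeR adjusted p = 0.0363). Tle2, a Groucho corepressor, had 0.30, adjusted p = 0.0334, with no overlap. Nr2f6, an orphan nuclear receptor, had 18.4, 22.5, 22.6, 22.6 and 21.1 CPM in the TPA libraries and 16.4, 15.2, 16.4, 19.3 and 16.1 CPM in the zinc libraries (0.36, SE 0.08, adjusted p = 0.0451), and its groups overlapped. Tada2b and Atxn7l3, subunits of the SAGA coactivator, had 0.17 (0.037) and 0.16 (0.0418). Gtf2ird1, of the TFII-I family, had 34.1, 35.3, 33.02, 32.6 and 33.1 CPM in the TPA libraries and 27.7, 29.9, 28.9, 29.2 and 27.8 CPM in the zinc libraries, without overlap (0.23, SE 0.04, adjusted p = 0.0132), and the RNA polymerase III subunit Polr3e had a fold change of 0.17, adjusted p = 0.0432. Among 53 histone-modifying enzymes and large chromatin regulators 42 were positive (median 0.073), with Hdac7 alone past the threshold, Ehmt2 at 0.17, adjusted p = 0.067 and Brd3 at 0.12, adjusted p = 0.0973. Tada2b and Atxn7l3 were not members of that list. Fuk, the fucose kinase gene, had 7.42, 7.94, 7.89, 7.40 and 8.13 CPM in the TPA libraries and 5.89, 5.52, 5.90, 6.71 and 6.95 CPM in the zinc libraries (0.33, SE 0.07, adjusted p = 0.0387), and Leng8 59.3, 73.99, 62.7, 61.96 and 75.7 CPM in the TPA libraries and 55.1, 56.3, 49.2, 49.2 and 56.2 CPM in the zinc libraries (0.33, SE 0.07, adjusted p = 0.0291). Neither gene's groups overlapped. The remaining higher genes with an established symbol were Snn, Carhsp1, Ttyh3, Rnpepl1, Fam193b, Cnnm3, Lrp3, Dennd6b, Crip2, Nrbp2, Pcbp4 and Neurl4, at 0.16 to 0.24. A further gene carries a clone name.

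Hmgb2, a high mobility group protein that bends DNA, had the largest fall among genes past the threshold. It had 2.27, 2.67, 2.89, 2.62 and 2.16 CPM in the TPA libraries and 3.75, 4.70, 4.43, 4.43 and 4.22 CPM in the zinc libraries (1.71-fold lower; log2 fold change -0.77, SE 0.12, edgeR adjusted p = 0.0096; chromosome 8, 57511843 to 57515999, plus strand). The highest TPA library lay well below the lowest zinc library, and the gene passed in all 22 alternative settings that gave it an adjusted p. It was also fitted in a setting that gave it none. Nusap1, a protein of the mitotic spindle, had 1.89, 1.83, 1.91, 1.87 and 1.94 CPM in the TPA libraries and 2.48, 2.58, 2.74, 2.42 and 3.20 CPM in the zinc libraries, without overlap (1.42-fold lower; log2 fold change -0.50, SE 0.10, edgeR adjusted p = 0.0291; chromosome 2, 119618298 to 119650160, plus strand). Fam111a, a protease that acts at replication forks, had 1.32, 1.26, 1.06, 1.33 and 1.32 CPM in the TPA libraries and 1.66, 1.81, 2.06, 1.61 and 1.85 CPM in the zinc libraries, also without overlap (log2 fold change -0.52, SE 0.12, edgeR adjusted p = 0.0472). Of 48 high mobility group and cell cycle genes 31 were negative and Hmgb2 and Nusap1 fell, with 0 rising. The list median was -0.042, and 0.012 without the 3 most deviating libraries. Replication-dependent histone genes had 7 of 12 negative (median -0.14) and 0 past the threshold. The lowest p among them belonged to Hist1h4h (-0.26, adjusted p = 0.485), Hist2h2be (-0.15, adjusted p = 0.492) and Hist1h2bc (-0.13, adjusted p = 0.524).

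Cacng3, an auxiliary subunit that traffics AMPA-type glutamate receptors, had 13.4, 11.1, 11.4, 11.6 and 11.98 CPM in the TPA libraries and 15.2, 15.2, 14.8, 15.3 and 14.7 CPM in the zinc libraries (1.27-fold lower; log2 fold change -0.34, SE 0.06, edgeR adjusted p = 0.0187; chromosome 7, 122671744 to 122769394, plus strand). The zinc libraries lay within a narrow band above all TPA libraries. It was the single gene past the threshold of 30 glutamate receptor genes tested, of which 21 were positive (median 0.05). Grm2, a presynaptic metabotropic receptor, had 60.4, 56.2, 49.4, 50.9 and 55.6 CPM with TPA and 47.7, 39.3, 39.6, 47.3 and 40.3 CPM with zinc, without overlap (0.35, SE 0.09, adjusted p = 0.0643), and the kainate receptor subunit Grik5 0.17, adjusted p = 0.0845. Slc17a6, the vesicular glutamate transporter 2 gene, had 38.5, 42.1, 38.9, 38.8 and 36.7 CPM in the TPA libraries and 51.2, 60.5, 51.3, 43.4 and 43.7 CPM in the zinc libraries, with the TPA libraries lower and no overlap (-0.36, SE 0.09, adjusted p = 0.0583).

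Other synaptic lists had no gene past the threshold. Voltage-gated calcium channels and CaM kinases had 21 of 26 positive (median 0.092), with Cacnb3 at 0.20, adjusted p = 0.0848 and Camkk2 at 0.33, adjusted p = 0.11. Postsynaptic density scaffolds had 26 of 32 positive (median 0.09), with Dlg1 at -0.15, adjusted p = 0.098 and Dlgap3 at 0.14, adjusted p = 0.114. Potassium channels had 36 of 50 positive (0.053), presynaptic release genes 29 of 47 (0.035), clustered protocadherins 40 of 55 (0.052) and GABA receptors 5 of 14 (-0.011). The mean deviation of the calcium channel list was -0.053, 0.073, 0.02, 0.071 and 0.13 with TPA and -0.16, -0.15, -0.12, 0.035 and 0.11 with zinc, and that of the scaffolds -0.021, 0.057, -0.0083, 0.053 and 0.081 and -0.13, -0.11, -0.096, 0.065 and 0.056. In both lists zinc replicates 1 to 3 were low and zinc replicates 4 and 5 lay among the TPA libraries.

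Some of the lower genes make ribosomes or handle RNA. No list of such genes was drawn up, so their share among all genes tested was not counted. Noc3l, a nucleolar factor of the large ribosomal subunit, had 16.6, 18.5, 18.2, 17.1 and 18.8 CPM in the TPA libraries and 20.1, 22.01, 22.1, 21.3 and 21.7 CPM in the zinc libraries, without overlap (log2 fold change -0.26, SE 0.05, edgeR adjusted p = 0.0187). Cebpz, its relative in the nucleolus, had -0.17, adjusted p = 0.037, and Ddx10, a nucleolar RNA helicase, 28.5, 26.1, 27.8, 27.4 and 25.02 CPM in the TPA libraries and 29.6, 32.8, 32.9, 32.04 and 32.4 CPM in the zinc libraries (-0.24, SE 0.05, adjusted p = 0.023). Neither of these overlapped between groups. Mettl14, of the complex that writes the m6A mark on RNA, had 17.7, 17.7, 16.7, 17.1 and 15.7 CPM in the TPA libraries and 19.8, 19.6, 20.9, 18.5 and 20.5 CPM in the zinc libraries, again without overlap (-0.23, SE 0.05, adjusted p = 0.0442). The splicing regulator Mbnl2 had -0.19, adjusted p = 0.0451, with overlapping groups. Eif2s2, the beta subunit of translation initiation factor 2, had -0.21, adjusted p = 0.0451, the signal recognition particle subunit Srp72 -0.15, adjusted p = 0.0472 and the RNA-binding Thumpd1 -0.16, adjusted p = 0.0472. Cytosolic ribosomal proteins and spliceosome genes are different classes from these. They had 40 of 80 and 19 of 44 positive, with 0 past the threshold in either.

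Tspyl2, a nucleosome assembly protein of the TSPY family, had 83.8, 77.3, 72.97, 75.5 and 71.8 CPM in the TPA libraries and 87.8, 97.5, 98.8, 86.7 and 87.5 CPM in the zinc libraries, without overlap (log2 fold change -0.27, SE 0.05, edgeR adjusted p = 0.0291). Emd, the nuclear envelope protein emerin, had 54.9, 52.8, 57.4, 55.1 and 50.5 CPM in the TPA libraries and 65.6, 64.3, 65.95, 64.4 and 55.6 CPM in the zinc libraries (-0.22, SE 0.05, adjusted p = 0.0499). Zinc replicate 5 fell among the TPA libraries and the other zinc libraries lay above them. Zmpste24, the protease that matures prelamin A, had 26.6, 28.1, 28.7, 29.3 and 28.1 CPM in the TPA libraries and 33.7, 35.6, 31.8, 29.6 and 35.5 CPM in the zinc libraries, without overlap (-0.24, SE 0.05, adjusted p = 0.0449). Uqcrb, a subunit of respiratory complex III, had 47.6, 39.9, 44.9, 45.7 and 44.03 CPM in the TPA libraries and 52.3, 53.01, 54.6, 52.1 and 46.6 CPM in the zinc libraries (-0.22, SE 0.05, adjusted p = 0.0416). Its groups overlapped, and it was the single gene past the threshold among 74 oxidative phosphorylation subunits (53 negative, median -0.03). Klhl13, a cullin 3 ubiquitin ligase adaptor, had 49.1, 52.9, 49.5, 51.7 and 44.8 CPM in the TPA libraries and 61.8, 66.5, 63.8, 55.4 and 57.5 CPM in the zinc libraries, without overlap (-0.30, SE 0.06, adjusted p = 0.035). Lix1 had 55.2, 50.6, 50.3, 50.98 and 53.9 CPM in the TPA libraries and 61.4, 60.9, 63.7, 57.5 and 68.6 CPM in the zinc libraries, also without overlap (-0.26, SE 0.05, adjusted p = 0.0199).

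Ccdc55 had 17.3, 12.2, 14.6, 14.01 and 13.7 CPM in the TPA libraries and 17.9, 16.6, 17.7, 17.6 and 18.3 CPM in the zinc libraries (-0.29, SE 0.07, adjusted p = 0.0483), and the homeobox gene Zhx2 34.9, 34.6, 34.7, 33.4 and 33.6 CPM in the TPA libraries and 40.3, 44.7, 41.4, 41.8 and 34.03 CPM in the zinc libraries (-0.24, SE 0.05, adjusted p = 0.0451). In both the groups overlapped, although their means differed past the threshold. The autophagy receptor gene Tax1bp1 had -0.15, adjusted p = 0.0401, Arid4a -0.22, adjusted p = 0.0499 and Serf2 -0.17, adjusted p = 0.0363, all without overlap.

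No zinc-handling gene passed the threshold at 90 min. Mt2, a metallothionein that binds zinc in the cytosol, had 33.7, 24.9, 28.4, 25.7 and 26.9 CPM in the TPA libraries and 32.8, 35.6, 38.99, 40.9 and 31.02 CPM in the zinc libraries. Most zinc libraries lay above the TPA libraries, but TPA replicate 1 lay among them, and the gene did not pass (log2 fold change -0.36, SE 0.08, edgeR adjusted p = 0.0541). With the GC offset described below it did, at -0.39 (adjusted p = 0.0402). Mt1, its neighbour and paralog, had 56.1, 48.2, 54.9, 51.7 and 48.5 CPM in the TPA libraries and 56.4, 62.4, 62.2, 65.3 and 51.9 CPM in the zinc libraries (-0.20, SE 0.06, adjusted p = 0.098). The zinc exporter Slc30a1, whose gene zinc is known to induce through MTF1, had 37.4, 45.02, 40.2, 45.4 and 45.1 CPM in the TPA libraries and 45.4, 44.2, 44.5, 40.2 and 47.8 CPM in the zinc libraries, with overlapping groups (-0.06, SE 0.06, adjusted p = 0.629), and the importer Slc39a10 had 0.07, adjusted p = 0.624. Of 13 metallothionein, Mtf1 and SLC30 genes tested 8 were negative (median -0.061), and of 11 SLC39 importers 6 were positive (median 0.028), with 0 past the threshold in both lists.

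The metal response element, bound by MTF1, was searched as TGCACNC or TGCGCNC on either strand in the same 250-base windows. It was found 3 times before Mt2 (at 223, 128 and 50 bases before the start) and 1 time before Mt1 (at 23 bases), shown in capitals because both genes are known targets of MTF1. Its letters occur in 21.4% of all windows and for 34.9% of tested genes with a window, and were found for 25 of 44 higher and 8 of 17 lower genes.
Mt2, chr8:94172368-94172617, plus strand: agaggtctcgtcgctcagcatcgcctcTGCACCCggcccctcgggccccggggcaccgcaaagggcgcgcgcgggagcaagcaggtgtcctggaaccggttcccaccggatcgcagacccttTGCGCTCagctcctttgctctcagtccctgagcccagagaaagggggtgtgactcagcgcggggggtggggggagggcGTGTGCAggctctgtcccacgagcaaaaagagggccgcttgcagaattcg
Mt1, chr8:94178839-94179088, plus strand: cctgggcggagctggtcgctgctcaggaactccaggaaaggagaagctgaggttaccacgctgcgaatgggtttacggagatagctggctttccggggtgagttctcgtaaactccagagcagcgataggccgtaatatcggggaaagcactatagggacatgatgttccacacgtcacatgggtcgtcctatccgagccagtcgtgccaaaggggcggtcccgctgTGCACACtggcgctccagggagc
So short a set of letters is common. Both metallothionein genes stayed short of the threshold in the fit reported above, although Mt2 passed with the GC offset.

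Lists of stress and secretory pathway genes had mostly negative fold changes, although no member passed. The integrated stress response, in which ATF4 turns on amino acid synthesis and tRNA charging genes, had 24 of 24 members negative, with a median of -0.15. Psat1, an enzyme of serine synthesis, had 67.8, 68.2, 69.9, 63.5 and 59.7 CPM in the TPA libraries and 92.1, 105, 93.97, 77.8 and 69.8 CPM in the zinc libraries (-0.42, SE 0.10, adjusted p = 0.0643). Zinc replicate 5 fell among the TPA libraries and zinc replicates 1 to 3 were the highest. The tRNA synthetases Sars and Nars had -0.16, adjusted p = 0.121 and -0.15, adjusted p = 0.132. The list's mean deviation was -0.054, -0.034, -0.077, -0.09 and -0.24 with TPA and 0.22, 0.38, 0.17, -0.012 and -0.24 with zinc. In both groups replicate 5 was the lowest, at the same -0.24, and it was also the lowest among glutamate and control libraries. Without a library the list's median ranged over -0.21 to -0.11, and without the 3 most deviating libraries it was -0.25.

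Of heat shock genes and those of the unfolded protein response 28 of 31 were negative with a median of -0.17. Hsp90b1, the endoplasmic reticulum chaperone GRP94, had 469.5, 437, 434, 417 and 394 CPM in the TPA libraries and 564, 619, 569, 492 and 463 CPM in the zinc libraries (-0.33, SE 0.08, adjusted p = 0.0583), and the disulfide isomerase Pdia4 -0.34, adjusted p = 0.076. In Hsp90b1 zinc replicate 5 fell just below TPA replicate 1 and the other zinc libraries lay above all TPA libraries. The list's mean deviation was -0.01, -0.069, -0.07, -0.069 and -0.15 with TPA and 0.13, 0.19, 0.15, 0.027 and -0.054 with zinc. Delayed activity-regulated genes had 27 of 34 negative, with a median of -0.15 (from -0.21 to -0.078 with a library left out). Bdnf, the neurotrophin, had 137, 130.2, 121, 121 and 119 CPM in the TPA libraries and 182, 192, 177, 135 and 127 CPM in the zinc libraries (-0.37, SE 0.13, adjusted p = 0.159), with zinc replicates 4 and 5 among the TPA libraries. Neuritin, Nrn1, had 58.8, 53.8, 55.4, 54.3 and 52.3 CPM with TPA and 66.5, 70.1, 65.2, 60.1 and 60.2 CPM with zinc, without overlap (-0.23, SE 0.06, adjusted p = 0.0692). Members of such a list are not independent of each other, and these counts carry no test.

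**Figure D3:**
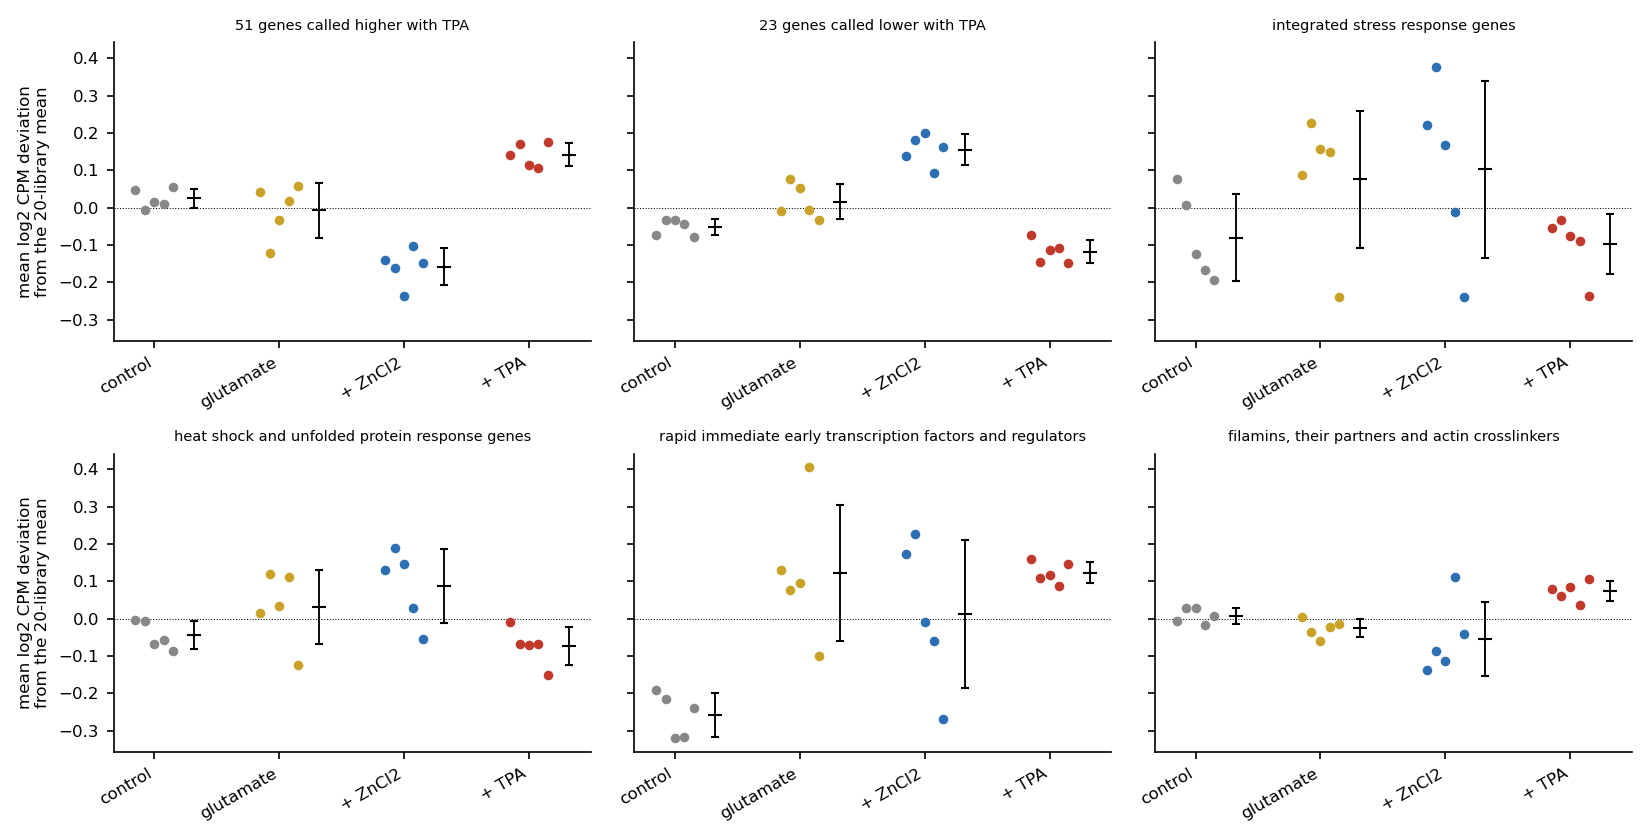
Mean log2 CPM deviation from the 20-library mean (vertical axis) over the 51 higher genes, the 23 lower genes and 4 gene lists, for each library of the 4 groups, with the mean (bar) and SD (whisker). The panels of the 51 and 23 genes were chosen on this contrast and separate by construction, while in the stress, heat shock, immediate early and actin lists the zinc libraries spread widely and overlap those with TPA.

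NRF2 antioxidant genes (9 of 20 positive), cholesterol genes (13 of 25), glycolysis and hypoxia genes (13 of 26), proteasome subunits (9 of 31) and mitochondrial ribosomal proteins (21 of 52) had medians between -0.028 and 0.0058 and 0 genes past the threshold. Within them the hexokinase gene Hk2 had 4.37, 4.32, 4.12, 3.41 and 3.96 CPM in the TPA libraries and 6.50, 7.58, 6.17, 5.18 and 4.74 CPM in the zinc libraries, lower with TPA without overlap (-0.58, SE 0.15, adjusted p = 0.064). Heme oxygenase, Hmox1, had -0.51, adjusted p = 0.15. The plot of gene group medians shows 36 lists.

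**Figure D4:**
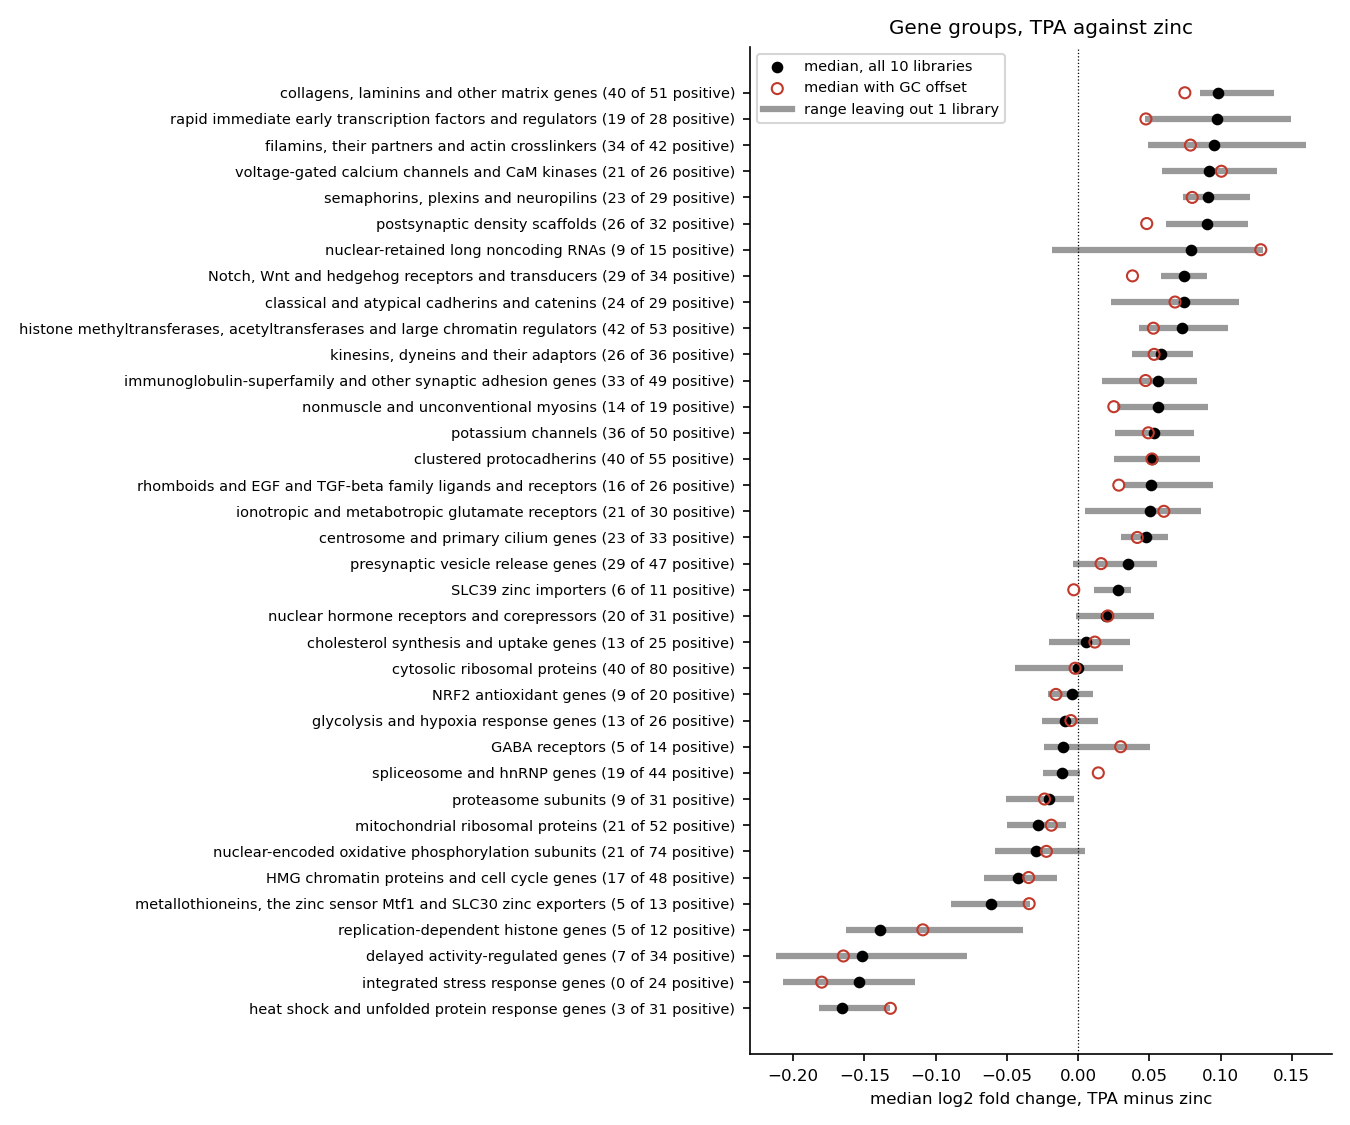
Median log2 fold change, TPA minus zinc (horizontal axis), of 36 gene lists (vertical axis, with the number of positive members of those tested), as fitted (black), with the GC offset (red ring) and as the range with 1 library left out (grey bar). Integrated stress, heat shock and delayed activity genes lie farthest below 0, and matrix, immediate early, actin, calcium channel and semaphorin genes farthest above.

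The same genes were read against the cultures with glutamate alone, whose libraries are shared by both contrasts, so the pair of values for a gene is not independent. Klf4 had -0.79, adjusted p = 0.585 for zinc minus glutamate and 0.12, adjusted p = 0.893 for TPA minus glutamate. Miat had -0.45, adjusted p = 0.585 and 0.21, adjusted p = 0.716, Flna -0.20, adjusted p = 0.741 and 0.26, adjusted p = 0.52, and Hmgb2 0.42, adjusted p = 0.585 and -0.35, adjusted p = 0.656, in the same order. For none of these 4 did either contrast pass. The median over the 51 higher genes was -0.13 for zinc minus glutamate and 0.12 for TPA minus glutamate, and over the 23 lower genes 0.10 and -0.12. These medians are descriptions, since the genes were chosen on the TPA and zinc libraries. The glutamate level thus lay between the TPA and zinc levels in the medians of both sets.

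GC content of the transcripts separated the genes past the threshold. The 51 higher genes had a median GC content of 56.5% and the 23 lower genes 43.4%, beside 49.7% over the 14310 tested genes with a matched transcript. Of the higher genes 50 lay above that overall median, and of the lower genes 5. Across genes, which are not independent replicates, the log2 fold change and GC content had a Pearson correlation of 0.24 and a Spearman correlation of 0.32. Genes were also split into 5 equal sets by GC content. From the lowest to the highest set the median log2 fold change went from -0.055 to 0.058. The highest set held 30 higher and 0 lower genes, and the lowest 0 higher and 14 lower.

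The slope of a library's log2 levels on GC content, per 10 percentage points, was 0.029 ± 0.035 with TPA and -0.035 ± 0.077 with zinc (n = 5 each; exact permutation test over libraries, 2-sided p = 0.143, adjusted over 3 library measures 0.429, smallest possible p 0.00794). Zinc replicate 4 stood at 0.094 and the other zinc libraries between -0.11 and -0.038. Without it the difference in slope was 0.096 instead of 0.064 (exact permutation p = 0.0159, not adjusted). Every remaining zinc library then lay below every TPA library, so this p is the smallest that these libraries can give. Whether the GC trend is part of a response of the cultures or of library making was not tested.

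With a within-library offset that removes the GC trend, 8 genes were higher and 4 lower with TPA, 0.0833% of genes together. They were Ypel1, Plxna3, Flna, Snn, Adcy6, Klf4, Miat and Slc6a6 upward and Cacng3, Hmgb2, Tspyl2 and Mt2 downward. All 74 genes kept their direction, and their medians moved from 0.25 to 0.21 and from -0.24 to -0.20. For Flna the offset gave 0.43, for Klf4 0.88, for Miat 0.63 and for Hmgb2 -0.71, each close to the value without it. Srf, with a GC content of 64.4%, went from 0.26 to 0.16 (adjusted p = 0.21). The list medians of the integrated stress (-0.18), heat shock (-0.13) and delayed activity genes (-0.16) stayed negative and those of the actin (0.079) and semaphorin genes (0.08) positive. That of the rapid immediate early genes was 0.048, with 15 of 28 positive instead of 19. Some other positive medians were lower with the offset, at 0.048 instead of 0.09 for postsynaptic scaffolds, 0.038 instead of 0.075 for Notch, Wnt and hedgehog genes and 0.025 instead of 0.056 for myosins. Others were higher, at 0.13 instead of 0.08 for nuclear-retained noncoding RNAs, 0.10 instead of 0.092 for calcium channels and CaM kinases and 0.06 instead of 0.05 for glutamate receptors. The sign turned for GABA receptors (from -0.011 to 0.03), SLC39 importers (from 0.028 to -0.0031) and spliceosome genes (from -0.011 to 0.014).

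**Figure D5:**
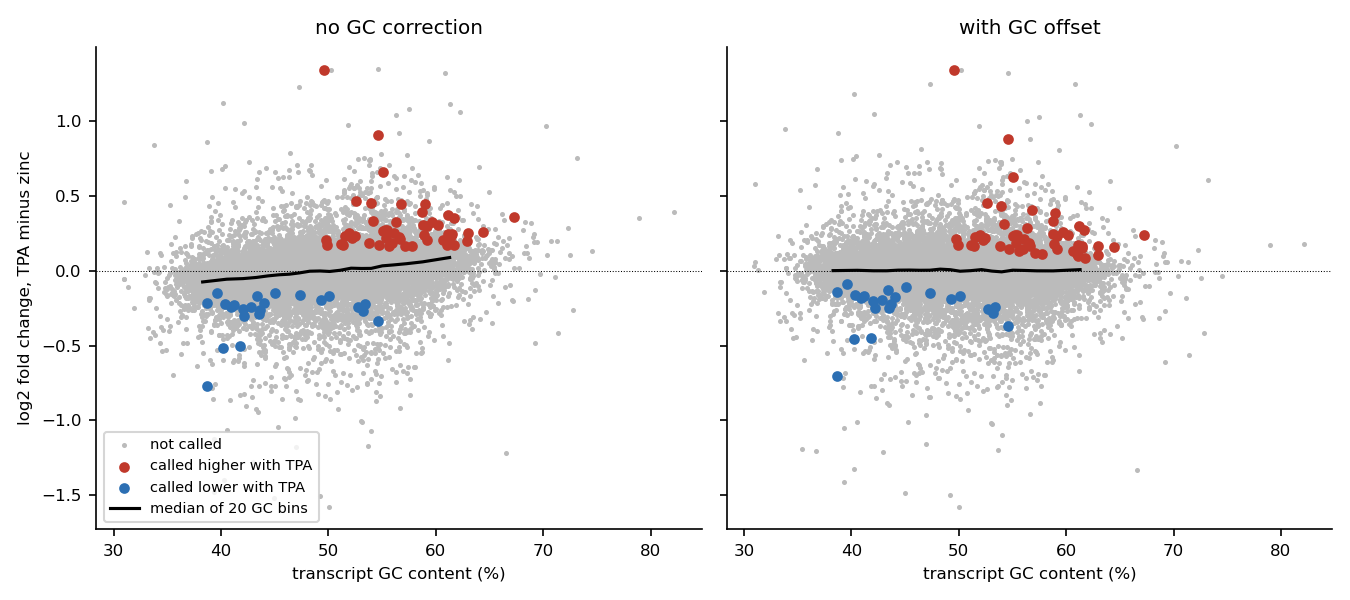
Log2 fold change, TPA minus zinc (vertical axis), of each gene against the GC content of its longest transcript (horizontal axis, percent), as fitted (left) and with the GC offset (right); red and blue mark the 51 higher and 23 lower genes, grey all others, and the line joins medians of GC bins. On the left the line climbs from below 0 to above 0 and the higher genes sit at the GC-rich end, and on the right the line is flat.

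Cell type markers were read in the same libraries. Neuron markers (12 of 12 tested) summed to 10627 to 11037 CPM with TPA and 10187 to 11818 with zinc, and none of the 12 passed the threshold. Neuronal RNA was abundant in every library. Astrocyte markers (12 of 12) summed to 1018 to 1149 and 1004 to 1183 CPM, microglia markers (7 of 12) to 15.5 to 18.5 and 16.3 to 19.8, and vascular and fibroblast markers (10 of 14) to 14.2 to 17.6 and 14.1 to 17.5. In the last list Acta2 alone passed, 6 of 10 were negative and the median was -0.17. Progenitor and dividing cell markers (10 of 10) had a median of 0.12 with 8 positive and 0 past the threshold, opposite in sign to the fall of Hmgb2 and Nusap1. Excitatory, inhibitory, oligodendrocyte and Cajal-Retzius marker lists held 0 genes past the threshold, and the 5 globin genes of the red blood cell list were at 0 in all 10 libraries. Summed levels of the groups overlapped in each list. Mean deviations, which weight each marker equally, did not overlap in 2 lists. For progenitor markers they were 0.12, 0.075, 0.10, 0.18 and -0.022 with TPA and -0.20, -0.081, -0.19, -0.13 and -0.09 with zinc, and for the 7 Cajal-Retzius markers tested 0.037, 0.11, 0.091, 0.28 and 0.083 and -0.023, -0.11, -0.19, -0.023 and -0.029. In both every TPA library lay above every zinc library, with a median log2 fold change of 0.12 and 6 positive in the second list. The part of cell composition in the differences above was not tested.

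In the authors' deposited table, made with DESeq2, 12069 genes carried an adjusted p for this pair of groups, and 456 (3.78%) were under 0.05, 294 higher with TPA and 162 higher with zinc. Of the 74 genes past the threshold here 73 (98.6%) are among those 456, all with the same direction, and they make up 16.0% of the authors' list. The 2 analyses use the same libraries, so this is no independent support.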

How the data were processed

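Gene counts, deposited by the authors as whole numbers for 20 libraries, were tested. Per the submitters' processing notes the tools were HISAT2 2.1.0, featureCounts, DESeq2 1.14.1 in R 3.3.0, Trimmomatic 0.36 and SAMtools 1.3.1, with the build mm10. The kit keeps strand per the labels' protocols. The strand setting of featureCounts is not given in the sources, so antisense and overlapping genes may share reads. The authors' deposited TPM values were read but no result rests on them. The authors' deposited DESeq2 table holds log2 fold changes, p-values, a Wald statistic (score) and a mean normalised count (signal), and was used for its calls alone.

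Counts were fitted with edgeR 4.0.16 in R 4.3.3 (filterByExpr, TMM factors, robust quasi-likelihood fit) to 4 group means over 20 libraries, and the contrast of TPA and zinc was tested with Benjamini-Hochberg adjustment at 0.05. The 14411 genes tested hold 99.98% of all counts. SE is the fold change divided by the square root of F. GC content came from the longest GENCODE transcript of a gene (99.3% of genes tested). The GC offset is a loess curve per library with a span of 0.5, and log2 CPM used a prior count of 2. Library measures were compared by exact permutation with SciPy 1.17.1. Alternatives were DESeq2 1.42.0, limma 3.58.1 voom, other scalings and filters, the replicate number as a block, the GC offset and leaving out libraries. The script was tested on simulated data.

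Members, lists and tests were chosen with earlier results of these data known. Named are genes past the threshold with at least 1 CPM and an established symbol, 11 set genes, and up to 3 genes of lowest p per list. By that rule full values were due for the 15 largest rises and falls, the 10 smallest p and called list members. Acta2, below that level, was named after its values were seen. Results for 1 gene and 1 gene list are not reported here.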

Additional observations from a re-analysis of the deposited data

Results flagged for a closer look

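Of 150 sets of 5 libraries examined (72 genes past the threshold and 3 library measures, in each of 2 groups), 9 were uneven, all for genes. In these 1 library stood apart from the other 4 of its group by Dixon's test, and chance flags about 1 in 20. With zinc, replicate 4 was high for Neurl4 (170.2 CPM, the others 151 to 156) and low for Eif2s2 (136 CPM, the others 159.5 to 170.1) and Srp72 (167 CPM, the others 179 to 183). Replicate 3 was low for Ssh3 (6.35 CPM, the others 7.38 to 7.82), replicate 1 for Ddx10 (29.6 CPM, the others 32.04 to 32.9) and replicate 5 for Emd (55.6 CPM, the others 64.3 to 66.0). With TPA, replicate 1 was low for Srf (46.3 CPM, the others 54.2 to 57.5), replicate 2 for Arid4a (40.7 CPM, the others 44.1 to 45.1) and replicate 3 for Fam111a (1.06 CPM, the others 1.26 to 1.33).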

How the results depend on the processing

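The settings reuse libraries on which the genes were chosen, so a kept direction is no independent support. All 74 genes past the threshold kept their direction in each setting in which they were fitted. Their number did not hold: it was 37 with library sizes alone, 496 with DESeq2 on the same genes (69 of the 74 among them), 3131 with limma-voom and library weights (5004 at an unadjusted p under 0.05), 41 with no low-count filter, and 12 with the GC offset. Fitting the 2 groups alone left 6, Miat, Flna, Plxna3, Ypel1, Hmgb2 and Egr1. Leaving out 1 library gave 5 to 899, and leaving out the 3 most deviating gave 1893 with all 74 among them, a setting chosen after seeing the data. The fit without robust estimation, also added afterwards, gave 72. DESeq2 size factors in edgeR gave 76, limma-voom 63 and a minimum of 1 CPM 84. The cause of these differences was not tested.

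With the replicate block the count was 422, and 255 with the GC offset and the replicate block together. Same-numbered TPA and zinc libraries had correlations of their deviations of 0.10, 0.13, 0.011, 0.017 and 0.26, not all above 0.1, and TPA replicate 1 correlated more with zinc replicate 2 (0.12) than with its own number, so the numbers were not taken to pair the samples. As a hint from the data and not the design, replicate 5 was the lowest library in all 4 groups for the integrated stress and heat shock lists. Mean deviations of astrocyte markers were lower in replicates 1 and 2 than in replicates 3 to 5 in all 4 groups. With TPA they were -0.0099 and -0.14 against 0.083, 0.14 and 0.087, and with zinc -0.13 and -0.16 against 0.061, 0.12 and 0.073. Summed CPM of excitatory markers had that order too, and those of neuron markers did not. The fit without the block leaves any such shared differences in the spread. Whether numbers mark a shared batch was not tested.

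The difference in GC slope was 0.045 to 0.096 with 1 library left out. The 10 most abundant genes took a share of counts that differed by -0.018 percentage points (exact permutation p = 0.770), and by -0.049 to 0.017 with 1 library left out, changing sign without zinc replicate 4 (0.0061) or 5. Fos had -0.12 without the 3 most deviating libraries. Nr4a1 had -0.12 with library weights, -0.0044 with the GC offset, -0.26 without the 3 most deviating libraries, and -0.083 to 0.17 with 1 library left out, negative without TPA replicate 1 (-0.016), zinc replicate 4 (-0.024) or zinc replicate 5. List medians moved by less than the spread between libraries in 830 recomputations and by more in 21. Depth limits genes near 1 CPM, such as Acta2.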

Other observations

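Slc30a3, which encodes the transporter ZnT3 that loads zinc into synaptic vesicles, had 4.29, 4.35, 5.41, 5.08 and 5.79 CPM in the TPA libraries and 3.73, 3.04, 3.53, 4.48 and 5.08 CPM in the zinc libraries (log2 fold change 0.34, SE 0.17, edgeR adjusted p = 0.348). The groups overlapped. Hmgn5, a nucleosome-binding protein gene outside the HMG-box family, had 11.5, 9.20, 9.92, 9.54 and 11.5 CPM with TPA and 12.7, 12.7, 15.2, 11.6 and 14.2 CPM with zinc, lower in every TPA library (-0.36, SE 0.10, adjusted p = 0.098). Vegfa, an angiogenic growth factor gene, had 41.3, 44.04, 41.2, 41.8 and 40.8 CPM with TPA and 46.6, 49.1, 47.7, 45.2 and 45.1 CPM with zinc, again lower without overlap (-0.16, SE 0.04, adjusted p = 0.064). Neither passed the threshold.

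Proteasome subunits with the lowest p were Psmc6 (-0.11, adjusted p = 0.0879), Psmd1 (-0.10, adjusted p = 0.098) and Psmd12 (-0.08, adjusted p = 0.308), each lower in every TPA library by a small amount. The sterol synthesis enzyme gene Cyp51 had -0.11, adjusted p = 0.0973, lower in every TPA library. Among kinesins and dyneins 26 of 36 were positive (median 0.058, Kif26a passing), with the neuronal kinesin Kif3c at 0.10, adjusted p = 0.104. Centrosome and cilium genes had 23 of 33 positive (median 0.047, Lrrc45 passing), with Crocc, the rootlet protein, at 0.35, adjusted p = 0.105. Tctn3, which passed, was not a member of that list. Nuclear receptors had 20 of 31 positive (median 0.019, Nr2f6 passing), and their median ranged over -0.0014 to 0.053 with a library left out. EGF and TGF-beta family genes with their rhomboid regulators had 16 of 26 positive (median 0.051, Rhbdf1 passing). The repressor of hedgehog signalling Sufu had 0.22, adjusted p = 0.115, and the clock gene Per2 -0.20, adjusted p = 0.103, both without overlap.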
